A study of Mus musculus with 10 samples.

Results

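The glutathione and antioxidant enzymes are the genes that make and recycle glutathione, remove peroxides and superoxide, and couple glutathione to foreign or oxidised molecules. Members were taken by symbol. They are the Gsta, Gstm, Gstt, Gsto, Gstp, Gstk, Gstz, Mgst, Gpx, Prdx and Sod genes with a number, with Gsr, Gss, Gclc, Gclm, Cat, Nqo1, Hmox1, Txn1 and Txnrd1. Of 23337 gene symbols in the data, 50 matched, and 37 of these held 10 or more normalised reads in at least 2 of the 10 libraries and are reported here.

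The study sequenced total RNA from immortalised mouse embryonic fibroblasts, connective-tissue cells grown from embryos, labelled Slfn2 WT or Slfn2 KO. Slfn2 belongs to the Schlafen genes, which respond to interferon. The 4 groups were WT-labelled untreated (3 libraries), WT-labelled with mouse interferon-β (IFN-β) at 5000 IU/ml for 6 h (3), KO-labelled untreated (2) and KO-labelled with the same IFN-β treatment (2). Per the labels, replicates are wells plated from a WT and a KO culture, so the genotype label and any other difference between the cell lines cannot be told apart. P-values therefore measure the spread between libraries and not between independently derived lines. Neither the deleted part of Slfn2 nor how the lines were immortalised is given in the sources used here.

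Glutathione is built by glutamate-cysteine ligase and glutathione synthetase, is used by glutathione peroxidases and transferases, and is returned to its reduced form by glutathione reductase. Peroxiredoxins remove peroxides with electrons from thioredoxin, which thioredoxin reductase recharges, and superoxide dismutases turn superoxide into hydrogen peroxide. Many of these genes are known targets of the transcription factor NRF2, which binds the antioxidant response element, and mitochondrial Sod2 is a known target of NF-κB in inflammatory signalling.

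The reported members took 0.401% to 0.483% of the normalised reads of a library, and the ranges of the WT-labelled and KO-labelled libraries overlapped. Recovered depth ran from 13565815 to 16329729 reads. Each of 10 fibroblast markers (Col1a1, Col1a2, Col3a1, Fn1, Vim, Thy1, Pdgfra, Pdgfrb, Dcn and Lum) reached 10 normalised reads in at least 2 libraries, with summed levels of 207041 to 310551 normalised reads in untreated WT-labelled and 299562 to 468820 in untreated KO-labelled libraries. The matrix proteoglycans Dcn and Lum went against that sum. Dcn was at 1567 to 2355 in WT-labelled and 77.3 to 107 in KO-labelled libraries, and Lum at 15.4 to 47.4 in WT-labelled and 0.942 to 3.65 in KO-labelled ones, near or under 3 reads. Of the macrophage, epithelial, endothelial and hepatocyte markers, only the macrophage genes Csf1r and Cd68 reached 10 normalised reads in 2 libraries, and the 5 macrophage markers together summed to 53.0 to 97.0 over all libraries. The part of these marker levels in the results below was not tested. Slfn2 itself held 18.7, 17.4 and 15.5 normalised reads in untreated WT-labelled cells, 527, 449 and 573 with IFN-β, 46.1 and 34.9 in untreated KO-labelled cells, and 75 and 171 in treated ones. It was thus not at 0 in the libraries labelled KO, and reads over the whole gene do not show whether part of it is deleted.

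Sequences before the start of transcription are shown for the member with the largest genotype difference, Gpx3, and for Gstm5, the member that differed by genotype and had an entry with a match to the core of the antioxidant response element. Both are the 250 bases before the RefSeq start, plus strand, GRCm38.p6, at chr11:54902604-54902853 for Gpx3 and chr3:107895604-107895853 for Gstm5, and capitals mark the match to TGACNNNGC.
Gpx3: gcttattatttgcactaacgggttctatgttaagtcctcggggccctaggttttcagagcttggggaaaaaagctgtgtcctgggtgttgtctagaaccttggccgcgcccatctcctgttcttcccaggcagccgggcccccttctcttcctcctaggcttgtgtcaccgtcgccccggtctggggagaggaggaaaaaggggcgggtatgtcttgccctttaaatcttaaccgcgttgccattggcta
Gstm5: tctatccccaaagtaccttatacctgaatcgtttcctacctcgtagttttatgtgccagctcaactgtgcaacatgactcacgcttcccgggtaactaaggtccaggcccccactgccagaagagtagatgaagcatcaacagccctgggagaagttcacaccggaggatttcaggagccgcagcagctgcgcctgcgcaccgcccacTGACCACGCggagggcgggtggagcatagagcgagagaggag

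Searched on both strands from 250 bases before to 50 bases after each RefSeq start, TGACNNNGC was found at 7 of 41 starts (17.1%) of the 30 reported members with an entry, against 12.4% of 32851 starts in the genome. The 7 members with a match are printed to let the matches be compared, each read along the strand that carries it, with the match in capitals.
Gclm: gtgagagtTGACGGTGCgcccggga
Gstm5: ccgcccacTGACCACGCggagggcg
Gstm7: tgaagaccTGACAAAGCgaagccaa
Mgst1: ccgcctccTGACCGTGCcaagcccc
Prdx1: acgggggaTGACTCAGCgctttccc
Sod1: cctgagtcTGACCACGCccaccttg
Txnrd1: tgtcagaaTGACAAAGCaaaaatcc
A match is a description of these letters and does not show a bound site.

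By level per length (mean normalised reads per kilobase of exonic bases in GENCODE M21), Txn1, the thioredoxin that feeds the peroxiredoxins, stood highest in both labels, at 6433 in untreated WT-labelled and 5100.4 in untreated KO-labelled cells. The order after it differed between the labels. In untreated WT-labelled cells Gsto1 at 3074, Gpx1 at 2768, Prdx2 at 2229 and Prdx1 at 2183 followed. In untreated KO-labelled cells Prdx2 at 4801, Prdx1 at 1923, Gpx1 at 1783 and Hmox1 at 1598 followed, with Gsto1 at 1497. At the other end, as a mean per kilobase over all 10 libraries, stood Gstt2 at 2.23, Gstm7 at 4.13 and Gsto2 at 8.51. Just inside the level required of a reported member were Gstm7, at 25.4 and 28.2 normalised reads in 2 libraries and no more than 2.20 in the others, and Gstt2, at 10.5, 16.96 and 16.4 in 3. Just outside were Gstt4, with a highest value of 9.29, and Gstk1, with 6.18. Of the 13 members not reported, Gpx2, Gpx5, Gpx6, Gpx7 and Gsta3 held no read in any library, and Gsta1, Gsta2, Gstm3, Gstm4, Gstm6 and Gstp2 held at most 4 reads in any library. All 37 reported members passed the filter on low counts and were tested.

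Between KO-labelled and WT-labelled cells, 8 of the 37 members differed in at least one treatment, 7 of them with and without IFN-β. Higher in KO-labelled cells were the extracellular peroxidase Gpx3, the transferases Gstm5 and Gstt3, the peroxiredoxin Prdx2 and, with IFN-β, the quinone reductase Nqo1. Lower were Prdx6, the transferase Gsto1 and mitochondrial Sod2. A difference is called where the two-sided p, adjusted by Benjamini and Hochberg's method, is under 0.05 in limma fitted to log2 of the normalised read count plus 1 over all tested genes, and every adjusted p below is from that test unless another is named. Untreated, 4 members were higher and 3 lower, 18.9% of the members where 6.23% of all tested genes were called (3% higher and 3.23% lower). With IFN-β, 5 were higher and 3 lower, 21.6% where 6.55% of all genes were called (2.92% higher and 3.64% lower). The median log2 fold change of the members was −0.12 untreated and −0.06 with IFN-β, against 0.00 for all genes in each.

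**Figure D1:**
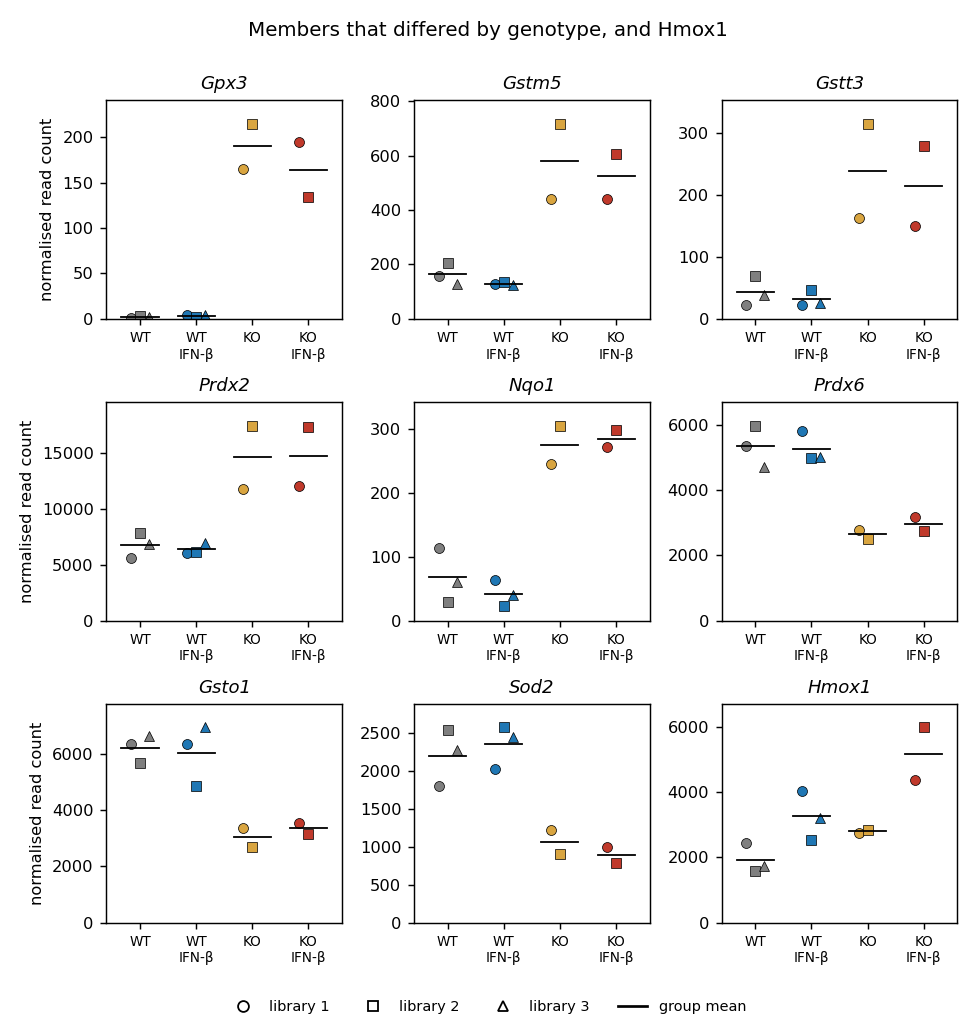
Normalised read counts (vertical axes, from 0) of the 8 members that differed by genotype label and of Hmox1, in the 4 groups. Each symbol is 1 library, its shape gives the replicate number and the line is the group mean. Every KO-labelled library lies outside the range of the WT-labelled ones for the first 8 genes, which were chosen by the test on these same values. This also held for Gpx1, Gstm2 and Prdx5, which did not pass without the replicate block, and for Txn1, which did not pass with it either. The share of all genes that separate in this way was not taken.

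Gpx3, a secreted selenium-containing glutathione peroxidase (chromosome 11, 54902453 to 54910377, plus strand, GRCm38, protein-coding), was nearly absent from WT-labelled cells. It held 1.10, 2.90 and 2.06 normalised reads in the untreated WT-labelled libraries and 4.12, 2.00 and 3.85 with IFN-β. KO-labelled libraries held 165 and 215 without treatment, and 194 and 134 after IFN-β. All 4 KO-labelled values lay above all 6 WT-labelled ones. The log2 fold change was 6.01 ± 0.45 (SE) untreated (adjusted p = 0.000138) and 5.27 ± 0.45 with IFN-β (adjusted p = 0.000275). The untreated WT-labelled libraries held 6 Gpx3 reads in all, so the size of this fold rests on few reads. The call remained without any 1 library (adjusted p up to 0.00547). Gpx3 met the level required of a reported member through its 4 KO-labelled libraries alone, so its presence among the higher members follows in part from that requirement. Over the 34 members at that level in at least 2 libraries of each label, 3 were higher and 3 lower untreated, and 4 higher and 3 lower with IFN-β. The share called among all genes at that level in both labels was not taken, so this count has no background to set it against. Gstm7 and Gstt2, which also reached it in one label only, were not called. Gpx1, the main cytosolic member of the family, moved the other way without passing. It was at 3519, 4622 and 3827 in untreated WT-labelled libraries and 2216 and 2924 in KO-labelled ones (log2 fold change −0.64 ± 0.19, adjusted p = 0.0855). With the replicate number as a block it passed (adjusted p = 0.0185). Gpx4, which reduces lipid peroxides in membranes, was at 489 to 701 in untreated WT-labelled and 681 and 699 in KO-labelled libraries (0.19 ± 0.19, adjusted p = 0.657).

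Among the glutathione transferases, the genes of 1 family did not all move together. The 7 Gstm genes lie within 149 kb of chromosome 3, in the order Gstm5, Gstm7, Gstm6, Gstm3, Gstm2, Gstm1 and Gstm4, and the 4 Gstt genes within 63.3 kb of chromosome 10, in the order Gstt3, Gstt1, Gstt4 and Gstt2. Gstm5 (chromosome 3, 107895821 to 107898686, plus strand), whose promoter is printed above, held 156, 206 and 128 normalised reads in untreated WT-labelled and 441 and 718 in KO-labelled libraries. With IFN-β the values were 127, 136 and 124 against 442 and 605. The groups did not overlap, and the KO-labelled mean was 3.55 times the WT-labelled one untreated and 4.06 times with IFN-β (log2 fold changes 1.81 ± 0.28, adjusted p = 0.00645, and 2.00 ± 0.28, adjusted p = 0.00387). Leaving out KO-labelled untreated library 2 ended the untreated call (adjusted p = 0.0619). Gstm2, from the same cluster, was at 124, 175 and 67.1 against 181 and 301 untreated, which did not pass (1.04 ± 0.42, adjusted p = 0.2, and 0.0355 with the replicate block).

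Gstt3 (chromosome 10, 75774115 to 75781414, minus strand), a theta-class transferase, held 21.96, 69.7 and 38.2 normalised reads in untreated WT-labelled libraries and 163 and 316 in KO-labelled ones. With IFN-β it held 22.7, 47.0 and 25.0 against 150.0 and 279.8. Both KO-labelled groups lay above both WT-labelled groups, by 2.51 ± 0.55 on the log2 scale untreated (adjusted p = 0.0304) and 2.74 ± 0.55 with IFN-β (adjusted p = 0.0208). Its neighbour Gstt1, at 41.7, 132 and 38.2 against 9.44 and 143 untreated, overlapped between the groups (−0.64 ± 1.22, adjusted p = 0.832). Leaving out any of 5 libraries ended the untreated Gstt3 call (WT-labelled untreated 1 and 3, WT-labelled IFN-β 3, and both KO-labelled untreated, adjusted p up to 0.193), and any of 4 ended the one with IFN-β (WT-labelled IFN-β 1 and 3 and both KO-labelled IFN-β, up to 0.164). Reads of near-identical genes of the Gstm and Gstt families may be split by the counting, which limits how surely a value belongs to 1 gene.

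Gsto1 (chromosome 19, 47854970 to 47864790, plus strand), an omega-class transferase that also reduces dehydroascorbate, was among the most abundant members and was lower in KO-labelled cells. Its normalised reads were 6333, 5681 and 6643 in untreated WT-labelled and 3361 and 2697 in KO-labelled libraries. With IFN-β they were 6329, 4849.8 and 6933 against 3547 and 3143. The WT-labelled mean was 2.05 times the KO-labelled one untreated and 1.80 times with IFN-β (−1.04 ± 0.18, adjusted p = 0.0106, and −0.84 ± 0.18, adjusted p = 0.0282). Leaving out KO-labelled untreated library 2 ended the untreated call (adjusted p = 0.0983). Leaving out library 1 or 3 of WT-labelled IFN-β or either of KO-labelled IFN-β ended the other (up to 0.188). Gstp1, the pi-class transferase, was at 859.8, 856 and 867 in untreated WT-labelled libraries and 646 and 874 in KO-labelled ones, which did not pass (−0.20 ± 0.16, adjusted p = 0.558).

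The 6 peroxiredoxins split. Prdx2, a cytosolic peroxiredoxin (chromosome 8, 84969587 to 84974834, plus strand), was higher in KO-labelled cells, at 11786 and 17500.2 normalised reads against 5648, 7856 and 6891 untreated. With IFN-β it was at 12098 and 17376 against 6104, 6137 and 6997. Both KO-labelled groups stood above every WT-labelled library (1.09 ± 0.23, adjusted p = 0.0247, and 1.18 ± 0.23, adjusted p = 0.0177). Prdx6 (chromosome 1, 161240112 to 161251219, minus strand), which takes its electrons from glutathione, was lower, at 2788 and 2509 against 5358, 5974 and 4700.0 untreated. With IFN-β it was at 3171 and 2751 against 5816, 4973 and 5006. These groups did not overlap either (−1.01 ± 0.15, adjusted p = 0.0054, and −0.83 ± 0.15, adjusted p = 0.0135). Prdx1, another cytosolic form, was at 6476, 6852 and 6598 against 6044 and 5659.7 untreated. These values did not overlap, and the difference did not pass (−0.18 ± 0.13, adjusted p = 0.491). Prdx3, Prdx4 and Prdx5 did not pass either (log2 fold changes −0.43 to −0.11 untreated). The untreated Prdx2 call ended on leaving out WT-labelled untreated 1 or 3, WT-labelled IFN-β 2 or KO-labelled untreated 2 (adjusted p up to 0.174), and the one with IFN-β on leaving out WT-labelled IFN-β 1 or 2 or KO-labelled IFN-β 2 (up to 0.151). For Prdx6 the untreated call ended on leaving out KO-labelled untreated 2 (0.0515), and the one with IFN-β on leaving out either treated KO-labelled library (up to 0.126). Exons of Junb and Rnaseh2a overlap Prdx2 on the opposite strand, and Gstm5, Gss, Gstz1, Prdx5 and Gclm also share exonic bases with a gene on the other strand. Gstt3 shares exonic bases with Gm20441 and Gclm with Gm6061 on the same strand, where reads could be split whatever the strand setting. Whether the counting used strand is not given in the sources used here.

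Of the superoxide dismutases, Sod2, the manganese enzyme of mitochondria (chromosome 17, 13006846 to 13040063, plus strand), was lower in KO-labelled cells. It held 1799.7, 2548 and 2275 normalised reads in untreated WT-labelled libraries and 1228 and 906 in KO-labelled ones. With IFN-β it held 2032, 2578 and 2458 against 1004 and 787. The groups did not overlap, and the WT-labelled mean was 2.07 times the KO-labelled one untreated and 2.63 times with IFN-β (−1.05 ± 0.21, adjusted p = 0.021, and −1.40 ± 0.21, adjusted p = 0.00517). The untreated call ended on leaving out WT-labelled untreated 2 or 3 or KO-labelled untreated 2 (adjusted p up to 0.155), and the one with IFN-β on leaving out KO-labelled IFN-β 2 (0.0585). Cytosolic Sod1 was at 2439.8, 3536 and 2688 against 2559 and 3512 untreated (0.07 ± 0.20, adjusted p = 0.892). Extracellular Sod3 was at 396, 876 and 602 against 118 and 416, and these ranges overlapped (−1.41 ± 0.61, adjusted p = 0.222, and 0.0134 with the replicate block).

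Nqo1, a quinone reductase much used as a readout of NRF2 (chromosome 8, 107388225 to 107403206, minus strand), held 114, 29.0 and 59.9 normalised reads in untreated WT-labelled libraries and 245 and 305 in KO-labelled ones. With IFN-β it held 63.9, 23.0 and 40.4 against 271 and 298. All KO-labelled values lay above all WT-labelled ones, with a log2 fold change of 2.21 ± 0.56 untreated (adjusted p = 0.0527, and 0.0123 with the replicate block) and 2.83 ± 0.56 with IFN-β (adjusted p = 0.019). That call ended on leaving out WT-labelled IFN-β 2 or 3 or either treated KO-labelled library (adjusted p up to 0.117).

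The genes that make and recycle glutathione did not pass between the labels without the replicate block. Gclc and Gclm are the catalytic and modifier subunits of glutamate-cysteine ligase. Gclc was at 1098, 640.0 and 901 normalised reads untreated in WT-labelled libraries and 1105 and 733 in KO-labelled ones (0.07 ± 0.28, adjusted p = 0.929). Gclm was at 731, 562 and 747 against 879 and 685 (0.20 ± 0.20, adjusted p = 0.643). Both genes thus overlapped between the labels. Glutathione synthetase, Gss, was at 1054, 771 and 645 against 923 and 562 (−0.16 ± 0.31, adjusted p = 0.831). Glutathione reductase, Gsr, was at 2036, 1763 and 1770.4 against 2696 and 2024 (0.33 ± 0.18, adjusted p = 0.344). Untreated, 1 KO-labelled Gsr value lay above all WT-labelled ones and the other within their range. With IFN-β both KO-labelled Gsr values lay above the WT-labelled ones (0.36 ± 0.18, adjusted p = 0.304). Gsr passed there with the replicate block (0.32 ± 0.10, adjusted p = 0.0417). Thioredoxin, Txn1, was at 6892, 6396 and 6996 against 5513 and 5208 (−0.33 ± 0.13, adjusted p = 0.193), and its reductase Txnrd1 at 10899, 5872 and 5995 against 9664 and 4405 (−0.16 ± 0.46, adjusted p = 0.9). Catalase, Cat, which splits hydrogen peroxide in peroxisomes, was at 667, 751 and 1051 against 1066 and 1546 (0.67 ± 0.27, adjusted p = 0.195, and 0.00149 with the replicate block). Both KO-labelled Cat values lay above the highest WT-labelled one.

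**Figure D2:**
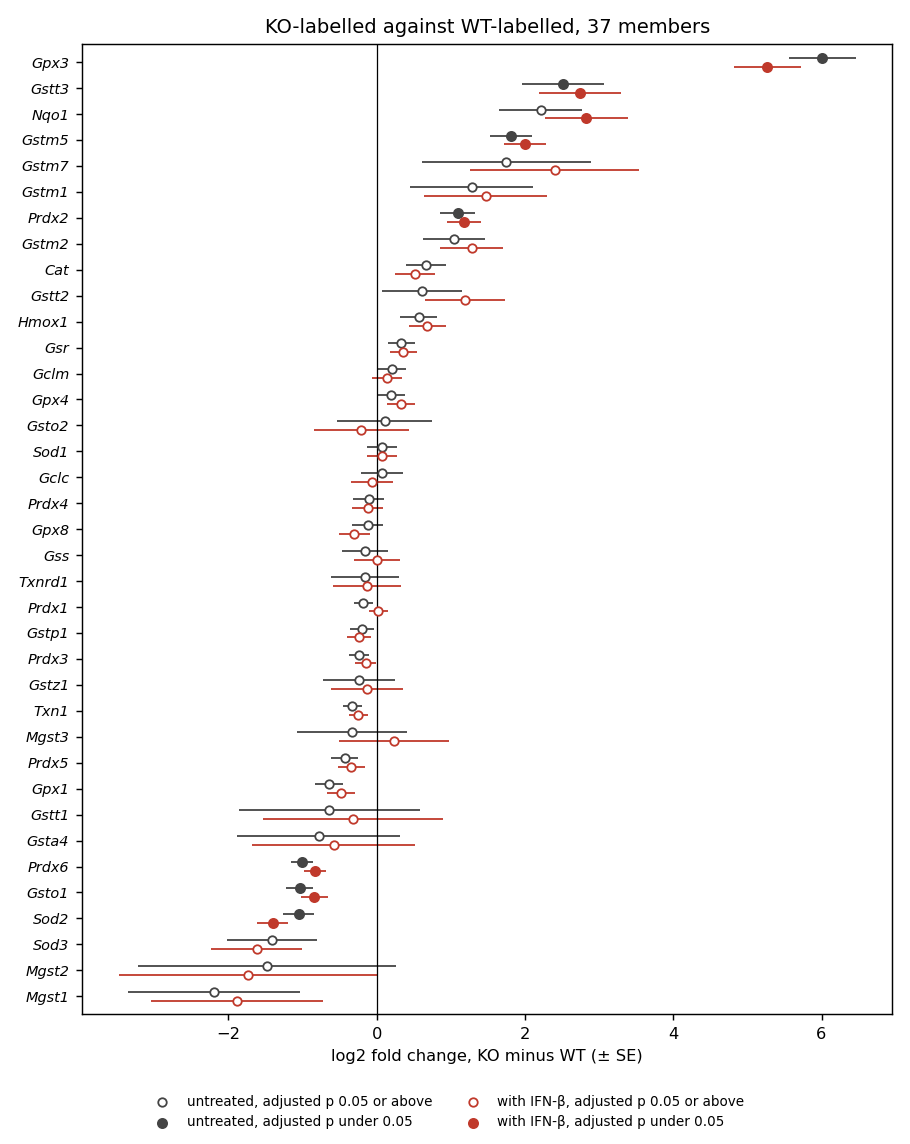
Log2 fold changes of KO-labelled over WT-labelled cells (horizontal axis) for the 37 members, untreated and with IFN-β, with bars of 1 SE. Filled points passed the test. Gpx3 stands at 6.01 and 5.27, and Prdx6, Gsto1 and Sod2 are the filled points below 0.

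Libraries of the same replicate number resembled each other across groups, so the genotype differences were also taken within a number, with 1 library on each side and hence no test. Untreated, the ratio of KO-labelled to WT-labelled was 2.83 for number 1 and 3.48 for number 2 for Gstm5, 7.40 and 4.53 for Gstt3, and 2.09 and 2.23 for Prdx2. For Nqo1 it was 2.15 and 10.5, the widest gap between the numbers among these 4. The ratio of WT-labelled to KO-labelled was 1.92 and 2.38 for Prdx6, 1.88 and 2.11 for Gsto1, and 1.47 and 2.81 for Sod2. Each of these members differed in the same direction within both numbers. That had to be so, since their untreated groups did not overlap, and it is not separate support. With the number as a block, 7 members were higher and 7 lower untreated (37.8% of members, where 26.6% of all genes were called, 13.5% higher and 13.1% lower), and 9 were higher and 6 lower with IFN-β (40.5% of members, where 26% of all genes were called, 12.7% higher and 13.3% lower). Those added by the block in either treatment were Cat, Gpx1, Gsr, Gstm1, Gstm2, Mgst1, Prdx5 and Sod3. Without KO-labelled untreated library 2 the untreated counts of 4 higher and 3 lower became 1 and 0, and without WT-labelled untreated library 3 the higher count became 2. With IFN-β the 5 higher became 3 on leaving out any WT-labelled IFN-β library or the first KO-labelled one, and 2 on leaving out KO-labelled IFN-β 2, while the 3 lower became 1 and 0 without those KO-labelled libraries. Leaving out a library also changes the balance of the replicate numbers between groups.

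No member passed the test for a response to IFN-β in either label. In WT-labelled cells limma called 0 of 37 (1 had an unadjusted p under 0.05), where 2.21% of all genes were called (2.21% higher and 0% lower). In KO-labelled cells it called 0 of 37 (again 1 had an unadjusted p under 0.05), where 1.84% of all genes were called (1.83% higher and 0.0162% lower). Of all genes, 6.07% in WT-labelled and 4.86% in KO-labelled cells had an unadjusted p under 0.05. edgeR, DESeq2 and limma with the replicate block also called 0 members in each. With the block, 4.95% of all genes were called in WT-labelled cells (4.68% higher and 0.268% lower) and 3.48% in KO-labelled cells (3.37% higher and 0.114% lower). Median log2 fold changes of the members were −0.10 and 0.01, against −0.03 for all genes in each.

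The member with the smallest p in both labels was Hmox1, haem oxygenase, which breaks down haem and is known to respond to NRF2 and to oxidants (chromosome 8, 75093621 to 75100589, plus strand). WT-labelled cells had 2424, 1582 and 1732 normalised reads before, and 4023, 2522 and 3209 after treatment. KO-labelled cells had 2755 and 2842 before, and 4368 and 5979 after treatment. Every treated library lay above every untreated one of its label. The log2 fold changes were 0.76 ± 0.22 (unadjusted p = 0.00713, adjusted p = 0.212) and 0.87 ± 0.27 (unadjusted p = 0.0106, adjusted p = 0.363), and with the replicate block adjusted p was 0.0827 and 0.147. DESeq2 gave adjusted p = 0.0623 and 0.135. Gstp1 separated as fully in both labels, with every treated library below every untreated one. Its log2 fold changes were −0.22 ± 0.14 (limma unadjusted p = 0.158) and −0.26 ± 0.18 (unadjusted p = 0.17). The share of all genes that separate in this way was not taken. Between the labels, Hmox1 had a log2 fold change of 0.57 ± 0.25 untreated (adjusted p = 0.226) and 0.68 ± 0.25 with IFN-β (adjusted p = 0.154).

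The anchor genes with no call held these normalised reads with IFN-β, to set beside the untreated ones above. Gclc had 997, 784 and 759.7 in WT-labelled and 939.9 and 689 in KO-labelled libraries, Gclm 859, 734 and 865 against 1022 and 796, and Gss 934, 589.9 and 693 against 874 and 606. Gsr had 2000.0, 1732 and 1708 against 2675 and 2018, Txn1 6428, 5568 and 6941 against 5343 and 5265, and Txnrd1 11000.2, 5973 and 6247 against 9774 and 4751. In each of these 6 genes the treated values overlapped the untreated ones of the same label. Gpx1 had 3484, 3092 and 3768 against 2186 and 2796, Gpx4 506, 487 and 609 against 636 and 698, and Prdx1 6187, 5322 and 6508 against 6217 and 5899.6. Sod1 had 2439, 2736 and 2575 against 2468 and 2971, and Cat 565, 689 and 888 against 903 and 1116.

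Without the block Hmox1 was the one member with an unadjusted p under 0.05 for IFN-β in either label. With it, 2 members in WT-labelled and 4 in KO-labelled cells had one, where 15.3% and 11.1% of all genes did. None of the members passed the adjusted test. Sod2 had a log2 fold change with IFN-β of 0.10 ± 0.19 in WT-labelled and −0.25 ± 0.23 in KO-labelled cells, Gclm of 0.28 ± 0.18 and 0.22 ± 0.22, and Nqo1 of −0.57 ± 0.50 and 0.06 ± 0.62. Precision differed among members, with an SE in WT-labelled cells of 0.12 for Txn1, 1.04 for Mgst1, 1.09 for Gstt1 and 1.56 for Mgst2. With the replicate block these became 0.08, 0.20, 0.52 and 0.63, against 0.20 for Hmox1. No member passed the interaction, which tests whether the response differs between the labels (0 at an unadjusted p under 0.05, with log2 differences from −0.74 to 0.65). edgeR and DESeq2 called 0 as well, at 0 with an unadjusted p under 0.05 each, and 0% of all genes were called by limma. Of all genes, 0.292% had an unadjusted p under 0.05 in limma, and 0.317% in edgeR and in DESeq2. The limma test could miss large differences. Slfn2 itself, at −3.35 ± 0.50 (unadjusted p = 8.99e-05), did not pass in limma, though it did in DESeq2 (adjusted p = 0.000127). Among members the SE reached 2.47 for Mgst2, so 0 calls do not show equal responses.

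**Figure D3:**
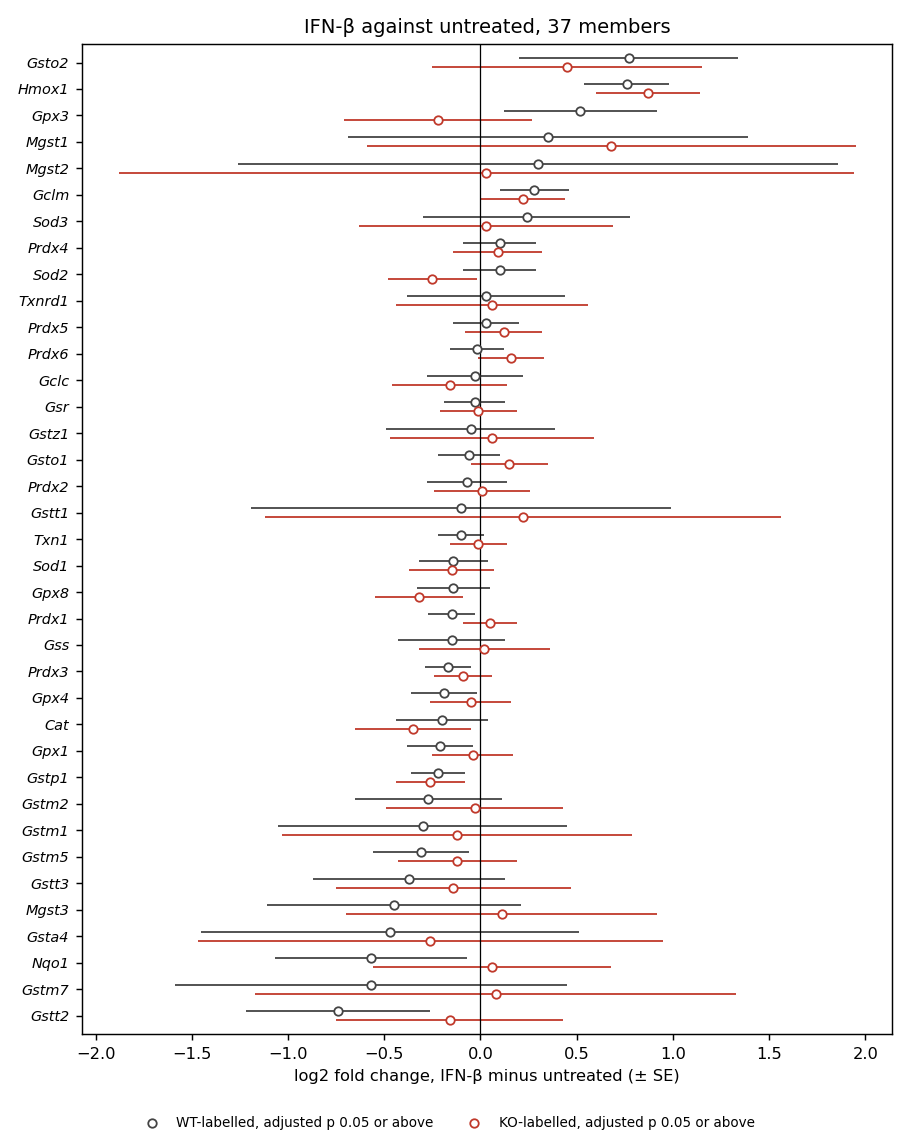
Log2 fold changes of IFN-β over untreated (horizontal axis) for the 37 members in WT-labelled and KO-labelled cells, with bars of 1 SE. No point is filled, since none passed the test. Hmox1 at 0.76 and 0.87 has bars that stay above 0 in both labels, and Gstp1 at −0.22 and −0.26 has bars that stay below 0 in both.

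Many members also differed by replicate number, which the labels give without saying what it marks. This comparison was added after the data were seen. In limma with a mean for each group, libraries numbered 2 were higher than those numbered 1 for 14 members and lower for 8 (59.5% of members, where 48.6% of all genes were called, 25.3% higher and 23.3% lower). The share for all genes is high, so the count for the members is not a result about them.

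The membrane-bound transferases of the Mgst group, which act on lipids and leukotriene precursors, were low in number 1 in every group. Mgst1 held 35.1, 224 and 202 normalised reads in WT-labelled untreated libraries 1, 2 and 3, and 44.3, 261 and 289.8 with IFN-β. KO-labelled libraries 1 and 2 had 9.44 and 62.2 without treatment, and 20.1 and 79.3 after it. Library 1 was the lowest of its group each time, and the log2 difference of number 2 over number 1 was 2.42 ± 0.17 (adjusted p = 8.1e-05). The KO-labelled value lay below the WT-labelled one of the same number throughout, and Mgst1 passed between the labels with the replicate block (−1.77 ± 0.23 untreated, adjusted p = 0.00131) and not without it (adjusted p = 0.326). Mgst2 had 12.1, 115 and 76.4 in untreated and 29.9, 85.0 and 80.9 in treated WT-labelled libraries. KO-labelled libraries had 2.10 and 98.9 without treatment, and 2.11 and 103 after it. In KO-labelled cells it was thus under the floor of 3 reads in both libraries numbered 1. The log2 difference between the numbers was 3.68 ± 0.54 for Mgst2 (adjusted p = 0.00116) and 1.17 ± 0.22 for Mgst3 (adjusted p = 0.00343).

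Several soluble transferases stood further apart between the 2 numbers in KO-labelled libraries. Gstm1, a mu-class transferase, held 391 and 2553 normalised reads in untreated KO-labelled libraries 1 and 2, and 395 and 2148 in treated ones. In WT-labelled libraries 1, 2 and 3 it had 280.0, 595 and 415 without treatment, and 261, 384 and 366 after it. The ratio of number 2 to number 1 was thus 6.53 and 5.44 in KO-labelled and 2.12 and 1.47 in WT-labelled cells, a contrast between the labels that was not tested. Gstt1 had ratios of 15.2 and 11.6 in KO-labelled and 3.16 and 2.13 in WT-labelled cells. For Gsta4, an alpha-class transferase that acts on lipid aldehydes, the ratios were 11.2 and 8.83 against 1.51 and 1.67. Over both labels the log2 difference was 1.70 ± 0.32 for Gstm1 (adjusted p = 0.0034), 2.48 ± 0.45 for Gstt1 (adjusted p = 0.00271) and 1.96 ± 0.48 for Gsta4 (adjusted p = 0.0102). Between the labels, Gstm1 did not pass (1.28 ± 0.83 untreated, adjusted p = 0.44).

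Txnrd1, the cytosolic thioredoxin reductase, went the other way. Libraries numbered 1 held 10899, 11000.2, 9664 and 9774 normalised reads in the 4 groups, and those numbered 2 held 5872, 5973, 4405 and 4751. The 2 libraries numbered 3, at 5995 and 6247, lay with number 2, and the log2 difference of number 2 over number 1 was −0.99 ± 0.07 (adjusted p = 8.17e-05). The glutathione synthesis genes were also lower in number 2, Gclc by −0.54 ± 0.10 (adjusted p = 0.00315), Gclm by −0.33 ± 0.08 (0.00793) and Gss by −0.59 ± 0.10 (0.00184). Higher in number 2 were cytosolic Sod1, by 0.36 ± 0.08 (0.00795) and Gstz1, which takes part in tyrosine breakdown, by 1.04 ± 0.14 (adjusted p = 0.000668). Of the 22 calls, 16 remained without any 1 library. Those of Cat, Gsr, Gstm5, Gsto1, Prdx2 and Prdx5 were each lost without at least 1 KO-labelled library (adjusted p up to 0.142), those of Gsto1 and Prdx5 also without WT-labelled IFN-β library 1, that of Gstm5 without WT-labelled untreated library 2, and that of Prdx5 without WT-labelled untreated library 3 or WT-labelled IFN-β library 2 or 3.

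**Figure D4:**
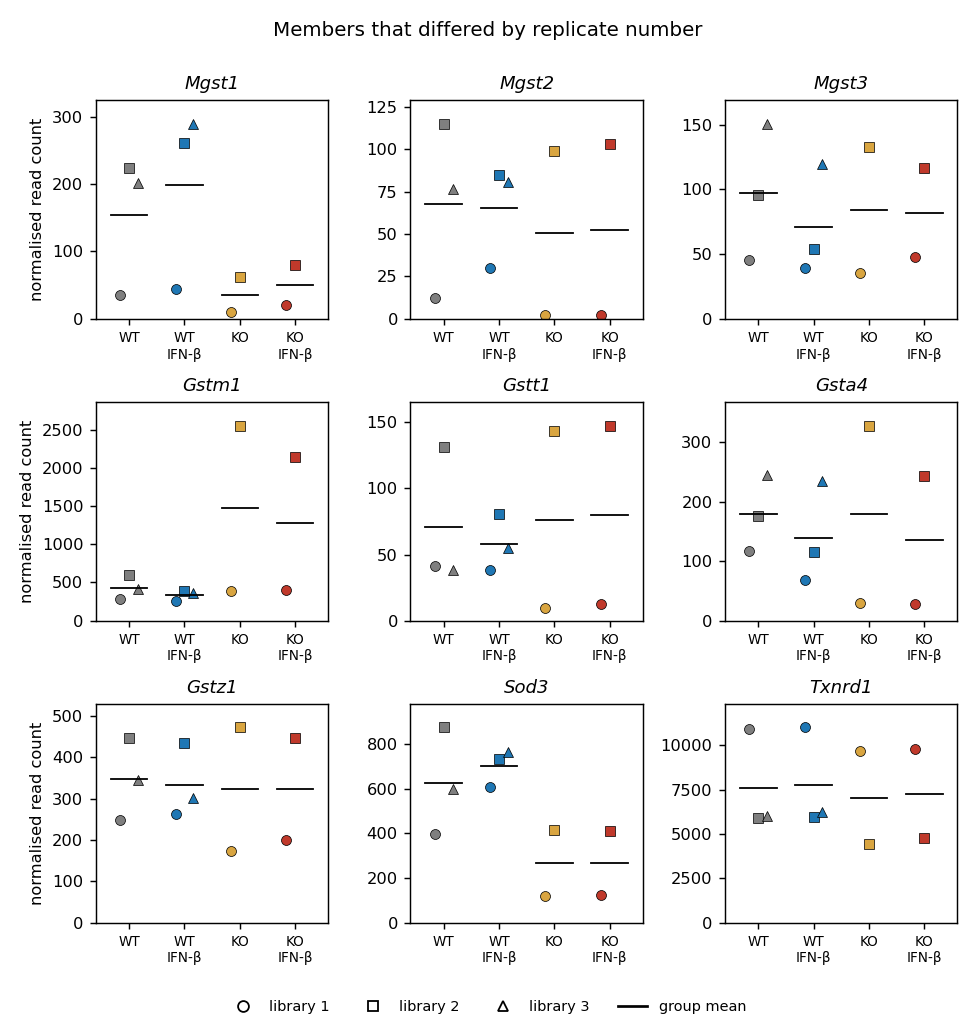
Normalised read counts (vertical axes, from 0) of 9 members that differed by replicate number, in the 4 groups. Circles, squares and triangles are libraries 1, 2 and 3, and the line is the group mean. Circles lie lowest in every group for Mgst1, and highest for Txnrd1.

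Genes around these enzymes were taken from a list of 63 symbols present in the data, of which 59 passed the low-count filter. Untreated, 3 were higher and 2 lower in KO-labelled cells (8.47% of the list, where 6.23% of all genes were called), and with IFN-β 3 were higher and 1 lower (6.78%, where 6.55% were called), so the list stood near the background. None of the 7 genes of NRF2 control passed between the labels. Nfe2l2, which encodes NRF2, was at 2139, 1201 and 1559 normalised reads in untreated WT-labelled and 1391 and 1136 in KO-labelled libraries (−0.34 ± 0.27, adjusted p = 0.542), and its inhibitor Keap1 at 827, 1272 and 874 against 1012 and 1299 (0.24 ± 0.24, adjusted p = 0.645). None of 10 genes of cystine and glutamate supply, 9 of NADPH supply, 7 of haem and iron handling and 4 oxidant sources passed without the replicate block. With it, 11 genes of the whole list were higher and 10 lower untreated (35.6%, where 26.6% of all genes were called), and 10 higher and 9 lower with IFN-β (32.2%, where 26% were). Untreated these included 4 of cystine and glutamate supply (Slc7a11, Cth and Cbs higher, Slc1a5 lower), 5 of NADPH supply (Me1 higher, G6pdx, Taldo1, Idh1 and Idh2 lower) and 2 of haem and iron handling (Fech higher, Fth1 lower), named here after their values were seen. G6pdx, the first enzyme of the pentose phosphate pathway, had a log2 fold change of −0.83 ± 0.15 with the block (adjusted p = 0.00484, and 0.0846 without it). The NRF2 control genes and oxidant sources had 0 calls with the block too.

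Of 12 genes of the thioredoxin and glutaredoxin system, 1 was higher and 2 lower untreated. Txnip, which binds and inhibits thioredoxin, was at 1300.1, 882 and 729.8 normalised reads in WT-labelled and 2519 and 2415 in KO-labelled libraries (1.39 ± 0.34, adjusted p = 0.0474; in treated cells a 2.77-fold higher mean, adjusted p = 0.035). Glrx, a glutaredoxin, was lower, at 614, 535 and 477 against 298 and 204 (−1.13 ± 0.27, adjusted p = 0.0418; with IFN-β −1.33 ± 0.27, adjusted p = 0.0209), and Glrx3 was lower untreated (−0.85 ± 0.19, adjusted p = 0.0313). Of 10 genes of export and detoxification, 2 were higher in each treatment. Cbr3, a carbonyl reductase, was at 149, 172 and 65.0 against 431 and 359.9 untreated (1.72 ± 0.43, adjusted p = 0.0478; with IFN-β 1.90 ± 0.43, adjusted p = 0.0324). The transporter Abcc5 passed untreated (0.96 ± 0.23, adjusted p = 0.0445) and the aldo-keto reductase Akr1b8 with IFN-β (0.53 ± 0.13, adjusted p = 0.0392). Each of these 9 calls was lost without any of 4 to 9 single libraries (adjusted p up to 0.249), and always without library 2 of the KO-labelled group compared.

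With IFN-β no gene of this list passed in limma or in edgeR in either label. In limma 8 and 3 of the 59 tested had an unadjusted p under 0.05, where 6.07% and 4.86% of all genes did. In edgeR 7 and 3 had one, where 6.03% and 4.79% of all genes did. DESeq2 called 2 and 1, and the share of all genes that it called was not taken. With the replicate block 9 passed in WT-labelled cells, 8 higher and 1 lower, where 4.95% of all genes were called, and 3 higher in KO-labelled cells, where 3.48% were. The 3 called with the block in both labels, named here after their values were seen, were Mafk, Sesn2 and Xdh. Mafk, a small MAF partner of NRF2, went from 681, 297 and 425 to 1686, 1135 and 1164 normalised reads in WT-labelled libraries and from 544 and 247 to 1534 and 1155 in KO-labelled ones. Treated and untreated libraries did not overlap (1.56 ± 0.37, adjusted p = 0.0789, and 0.00056 with the block in WT-labelled cells, and 1.86 ± 0.45, adjusted p = 0.112, and 0.000789 with the block in KO-labelled cells). Sesn2, a stress-induced sestrin, had 0.91 ± 0.28 and 0.83 ± 0.35 (adjusted p = 0.281 and 0.903, and 0.00342 and 0.023 with the block) in WT-labelled and KO-labelled cells. Xdh, xanthine dehydrogenase, which can produce superoxide, had 2.15 ± 0.81 and 2.48 ± 0.99 (adjusted p = 0.532 and 0.794, and 0.00194 and 0.00341 with the block), and its treated and untreated KO-labelled libraries overlapped.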

How the data were processed

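The deposited values are a signal: the authors counted reads per gene and scaled each library by its own size factor. Reads were handled with cutadapt 1.13, STAR 2.5.2a (mm10), HTSeq and DESeq2, per the submitters' processing notes, which give no role or order. The annotation, strand setting and filters are not given in the sources used here. In each library 100% of values were whole multiples of what 1 read is worth (tolerance 0.001 reads), which gave the whole reads. In a single library 3 reads, used as the floor, are worth 2.73 to 3.29 normalised reads, which covers counting error only.

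limma 3.58.1 (trend, R 4.3.3) was fitted to log2(normalised count + 1), a pseudocount of 1, with 4 group means over all 10 libraries, on 12313 genes that passed filterByExpr of edgeR 4.0.16 (minimum count 10 on whole reads). Fold changes understate those of low genes. P-values were adjusted over all tested genes (Benjamini-Hochberg, two-sided). The 5 comparisons were KO against WT in each treatment, IFN-β against untreated in each label, and their interaction. The number comparison used the fit with the replicate number as a block. On simulated counts for KO against WT untreated (12111 genes tested), 82% of 100 genes changed by 1 on the log2 scale and 100% of 100 changed by 2 were recovered, and 18 of 200 calls were unchanged genes. The simulated counts held no difference between replicate numbers, and their spread came from the fit with the block. How much the main test, which has no block, recovers in the real data was thus not measured.

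Replicate numbers pair the samples in the data. Deviations from group means correlated at 0.48 to 0.87 in all 13 same-number pairs and at no more than 0.32 between different numbers. In a KO-labelled group the deviations of the 2 libraries mirror each other, so several pairs repeat the same value and are not separate support. Taking off group means also lowers the values between different numbers.

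Values in every library are given for members that passed in a comparison or were listed as anchors (Gclc, Gclm, Gss, Gsr, Gpx1, Gpx4, Prdx1, Sod1, Sod2, Cat, Nqo1, Hmox1, Txn1 and Txnrd1). From the list of surrounding genes, up to 3 per role that passed between the labels are named. Members and lists were chosen with earlier results of these data known. Alternatives were TMM and total-count scaling, pseudocounts of 0.5 and 5, no filter, edgeR and DESeq2 1.42.0 on whole reads, the replicate block, only the 2 groups compared, and each library left out. Positions are GENCODE M21 (GRCm38), and sequences are RefSeq (GRCm38.p6). All 37 members matched GENCODE by symbol and 30 a RefSeq promoter.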

Additional observations from a re-analysis of the deposited data

How the results depend on the processing

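The 42 gene differences followed over 19 alternatives kept their direction in each. They were those that passed in at least 1 of these settings, with Hmox1 for IFN-β added. The kept direction follows in part from that choice, and whether a difference passed did vary with the setting. Untreated, the members higher and lower in KO-labelled cells (4 and 3) became 7 and 7 with the replicate block and 1 and 0 on only 2 groups. With IFN-β they (5 and 3) became 9 and 6 with the block and 5 and 2 on only 2 groups. Leaving out each library in turn gave 1 to 4 and 0 to 3 untreated and 2 to 5 and 0 to 3 with IFN-β. For the surrounding genes, 3 higher and 2 lower untreated became 11 and 10 with the block, 5 and 4 in DESeq2, and 0 and 0 on only 2 groups, and the 3 higher became 1 in edgeR and 0 with no filter. With IFN-β, 3 higher and 1 lower became 10 and 9 with the block and 1 and 0 on only 2 groups, and the 3 higher became 6 in DESeq2. Leaving out a library gave 0 to 2 and 0 to 3 untreated, and 0 to 3 and 0 to 1 with IFN-β. Their 0 calls for IFN-β in WT-labelled cells became 8 higher and 1 lower with the block, 2 higher in DESeq2, 1 higher on only 2 groups and 0 to 2 higher with a library left out. In KO-labelled cells they became 3 higher with the block, 1 higher in DESeq2 and 0 to 1 with a library left out. The cause of these shifts was not tested. Counts of members for IFN-β and the interaction were 0 in every alternative. Between the replicate numbers, members higher ranged from 11 to 17 and lower from 6 to 9. Total-count scaling moved the median of all genes to 0.11 on the log2 scale in that comparison. Depth limits the members with few reads, such as Gpx3 in WT-labelled cells, with 6 reads over the untreated libraries, and Mgst2 in KO-labelled library 1, with 2.10 normalised reads.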
